A study of Homo sapiens with 3 samples.

Results

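Translation initiation factors were followed through a pooled knockout screen by the guide RNAs whose gene name begins with EIF and a digit. The rule found 159 guides against 53 genes, 3 guides per gene, of 62916 guides in the library. Of the 53 genes, 39 encode initiation factors or close paralogs of them, among the latter EIF4A3, which acts in splicing and decay. The other 14 encode kinases, inhibitors, an elongation factor and its relatives, the alternative factors EIF2A and EIF2D, or proteins of other roles. They are described as such. No guide named for EIF3C, which encodes another large eIF3 subunit, was among the 159.

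NUGC3 is an established line from a human gastric cancer, in which a GeCKO guide library had been introduced, so that Cas9 cuts 1 gene per cell. DNA was taken at day 0, titled DMSO, and at day 14 from cells grown with either the solvent DMSO or 10 nM RTX. RTX is not spelled out in the labels, and antifolate sensitivity is the subject of the series title. Samples were grouped by title, since a treatment note has the day 0 cells under DMSO for 14 days. With a single sequenced library for every condition, differences cannot be checked against replicates. They are described without p-values, apart from a count test near the end that compares libraries and not conditions.

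Initiation brings the small ribosomal subunit, the initiator transfer RNA and the messenger RNA together at a start codon. eIF2, a GTP-binding protein of 3 subunits, carries the initiator transfer RNA, and eIF2B reloads it with GTP after each round. Stress kinases phosphorylate eIF2 and so turn it into an inhibitor of eIF2B, which lowers protein synthesis and favours translation of the transcription factor ATF4. eIF4E, eIF4G and the helicase eIF4A bind the cap of the messenger RNA, eIF3 joins it to the small subunit, and eIF1 and eIF1A watch over start codon choice. Most of these factors are needed for growth of dividing human cells, so a guide that inactivates one is usually lost from a growing pool.

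Reads of a guide, counted in genomic DNA, stand for the cells that still carry it. Library size lay between 16547572 and 18805737 reads, with a median of 230 to 251 reads per guide. Initiation factor guides had a median of 249 reads at day 0 (range 9 to 1347), 193 under DMSO (0 to 1596) and 227 under RTX (3 to 1813). Changes are given as log2 ratios after adding a pseudocount of 5 to each deposited normalized value, a scale that makes changes of rarely read guides look smaller. A ratio of 1 in size, a 2-fold loss or gain, was the limit used for counting. Guides needed at least 10 normalized reads at day 0, which 158 of the 159 passed. The exception, a guide against EIF4A3, had 9 reads at day 0, 0 under DMSO and 3 under RTX. A gene's value is the median over its measured guides. The 991 measured guides without a target show drift without a knockout. Their SD was 0.53 for DMSO over day 0, 0.56 for RTX over day 0 and 0.64 for RTX over DMSO. The DMSO day 14 library enters the first and the last of these comparisons, so a low value there makes one ratio low and the other high.

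Without drug, a larger share of initiation factor guides than of all guides was past the limit for loss. In DMSO over day 0, 42 of 158 guides (26.6%) were past a 2-fold loss, against 7.52% of all guides and 2.02% of the non-targeting guides. Past a 2-fold gain were 3 guides (1.90%), against 2.32% of all guides. By gene, 12 of 53 had a median past a 2-fold loss, against 3.42% of 20150 genes, and 0 were past a gain, against 0.109%. These were EIF1, EIF1AX, EIF2S1, EIF2S3, EIF2B1, EIF2B2, EIF2B5, EIF3D, EIF3F, EIF3J, EIF4G1 and EIF6. The median over the 53 genes was -0.36, over the 39 initiation factor genes -0.61 and over the other 14 genes -0.08, where the median of all genes was -0.00089. All 12 genes were among the 39 initiation factors.

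By gene, the guides past the limit were spread as follows. In DMSO over day 0, 28 of 53 genes had at least 1 guide past a 2-fold loss, against 19.0% of all genes, and 12 had at least 2, against 3.48%. All 3 guides were past it for EIF2S1 and EIF2B2, where 0.62% of all genes had 3 such guides. Genes with all guides below 0 numbered 11 of 53 (20.8%), against 14.6% of all genes.

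In RTX the same set stood close to its day 0 level. Past a 2-fold loss in RTX over day 0 were 13 guides (8.23%), against 5.32% of all guides, and past a gain 10 guides (6.33%), against 3.18%. Scaled to the non-targeting guides, this split was 16 lost and 5 gained, where 6.75% and 2.27% of all guides were. The median over the 53 genes was 0.01. Of single genes, EIF2A alone had a median past a 2-fold loss, where 1.39% of all genes did, and 0 had one past a gain, where 0.62% did.

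Directly compared, RTX held more reads of these guides than DMSO at day 14. In RTX over DMSO, 32 of 158 guides (20.3%) were past a 2-fold gain, against 7.89% of all guides and 4.24% of the non-targeting guides. Past a loss were 6 guides (3.80%), against 5.43%. The median over the 53 genes was 0.31 and over the 39 initiation factor genes 0.41, where all genes had -0.0025. Genes with a median past a 2-fold gain were EIF1, EIF1AX, EIF2S3, EIF2B1, EIF2B2, EIF2B4, EIF2B5, EIF3D and EIF3I, which is 9 of 53 against 2.75% of all genes. EIF3J was the 1 gene past a loss, where 0.844% of all genes were. All guides above 0 were found in 14 of 53 genes, against 13.9% of all genes. As a share of each library, the 159 guides took 2579 RPM (reads for every 1000000 in the library) at day 0 (95% Wilson interval 2555 to 2604), 2117 in DMSO (2097 to 2138) and 2597 in RTX (2573 to 2621). These and all intervals here cover counting error only.

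Of the 3 subunits of eIF2 itself, EIF2S1 and EIF2S3 had a median past a 2-fold loss in DMSO over day 0. EIF2S1, the alpha subunit that stress kinases phosphorylate, had day 0 reads of 48, 331 and 87 for its 3 guides, against 21, 86 and 25 under DMSO and 39, 226 and 44 under RTX. All of its guides were lowest in DMSO and stood between that and day 0 in RTX, with medians of -1.76 in DMSO over day 0, -0.55 in RTX over day 0 and 0.88 in RTX over DMSO. EIF2S3, the gamma subunit that binds GTP and the initiator transfer RNA, had day 0 reads of 291, 123 and 148, against 72, 44 and 195 under DMSO and 209, 132 and 125 under RTX. The first 2 of these guides were lowest in DMSO, while the third was highest there. Its medians were -1.53 in DMSO over day 0, -0.24 in RTX over day 0 and 1.61 in RTX over DMSO, the last of which is 0.91 with the mean of the guides and so under the limit. EIF2S2, the beta subunit, had day 0 reads of 268, 474 and 125, against 304, 327 and 19 under DMSO and 190, 507 and 80 under RTX. Its median of -0.69 in DMSO over day 0 covers guides from -2.58 to 0.02, and with the mean of the guides it was -1.08, past the limit. Together the 9 eIF2 guides took 115 RPM at day 0 (109 to 120), 58.1 in DMSO (54.8 to 61.7) and 89.5 in RTX (85.1 to 94.0).

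Guides against eIF2B, the exchange factor that recharges eIF2, together took a larger share of the RTX library than of the day 0 library, though not for every subunit. The 15 guides took 307 RPM at day 0 (299 to 316), 194 in DMSO (188 to 201) and 376 in RTX (367 to 385). From day 0 to RTX, EIF2B5 went from 82.7 to 126 RPM and EIF2B1 from 49.1 to 40.1. In DMSO over day 0, 8 of 15 guides (53.3%) were past a 2-fold loss, against 7.52% of all guides. In RTX over day 0, 0 were past a loss, against 5.32%, and 2 (13.3%) past a gain, against 3.18%. Compared with DMSO, 8 of 15 in RTX (53.3%) were past a 2-fold gain, against 7.89% of all guides. By gene, 4 of 5 had a median past that gain, against 2.75% of all genes.

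Among the catalytic part of eIF2B, EIF2B5, the epsilon subunit that carries the exchange activity, had day 0 reads of 743, 257 and 369, against 813, 118 and 74 under DMSO and 1085, 557 and 549 under RTX. Each of its 3 guides was most abundant in RTX. Its medians were -1.25 in DMSO over day 0, 0.56 in RTX over day 0 (range 0.54 to 1.09) and 2.33 in RTX over DMSO (0.55 to 2.95). EIF2B3, the gamma subunit that pairs with epsilon, had no median past the limit. Its guides had day 0 reads of 567, 47 and 557, against 770, 119 and 359 under DMSO and 771, 108 and 592 under RTX, with medians of 0.28, 0.43 and 0.14 in the same order of comparisons. With at least 50 normalized day 0 reads, which leaves out the guide of 47 reads, these were -0.25, 0.26 and 0.50, so the direction of the first turned.

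The regulatory part of eIF2B, made of the alpha, beta and delta subunits, senses phosphorylated eIF2. EIF2B2, the beta subunit, had day 0 reads of 205, 99 and 441, against 74, 36 and 97 under DMSO and 389, 64 and 497 under RTX. All 3 guides were past a 2-fold loss in DMSO over day 0, with a median of -1.56 (range -2.28 to -1.49). The RTX over DMSO median was 2.44 (0.88 to 2.45), the highest of the 53 genes, and in RTX over day 0 it was 0.16. EIF2B1, the alpha subunit, had day 0 reads of 151, 233 and 428, against 43, 269 and 112 under DMSO and 108, 216 and 372 under RTX. One guide did not follow the others, and the medians were -1.85 in DMSO over day 0, the lowest of the 53 genes, -0.21 in RTX over day 0, where all 3 guides were below 0, and 1.37 in RTX over DMSO. EIF2B4, the delta subunit, had day 0 reads of 333, 322 and 333, against 169, 190 and 411 under DMSO and 363, 443 and 410 under RTX. Its medians were -0.90, 0.29 and 1.22, and the last was 0.90 with the mean of the guides.

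Of the member guides past the limit, the 8 genes of eIF2 and eIF2B held 14 of 42 for loss in DMSO over day 0. For gain in RTX over DMSO they held 12 of 32. In DMSO over day 0, 14 of their 24 guides (58.3%) were past a 2-fold loss, and 28 of the 134 measured guides of the other 45 genes (20.9%). From DMSO to RTX, 12 of 24 and 20 of 134 were past a gain (14.9% of the latter). Against the 7.52% and 7.89% of all guides, the shares of the other 45 genes were thus still higher. Whether eIF2 and eIF2B differ from the other factors was not tested.

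The 4 kinases that phosphorylate eIF2 had no median past the limit in any comparison. EIF2AK1, the heme-regulated kinase, had medians of 0.30 in DMSO over day 0, 0.40 in RTX over day 0 and 0.08 in RTX over DMSO. EIF2AK2, known as PKR and activated by double-stranded RNA, stood at -0.05, -0.13 and -0.09. EIF2AK3, known as PERK of the endoplasmic reticulum, stood at 0.09, 0.04 and 0.32. EIF2AK4, known as GCN2 and activated by uncharged transfer RNA, stood at 0.23, 0.05 and -0.44. In DMSO over day 0, 0 of their 12 guides were past a 2-fold change, where 7.52% of all guides were past a loss and 2.32% past a gain. In RTX over day 0, 1 was past a loss, an EIF2AK4 guide at -1.52, and 1 past a gain, an EIF2AK2 guide at 1.09 (8.33% each, against 5.32% and 3.18% of all guides). Of RTX over DMSO values, 1 was past a gain, an EIF2AK2 guide at 1.63 (8.33%, against 7.89% of all guides). Past a loss was 1 EIF2AK4 guide at -1.77, with 320 reads in DMSO and 82 in RTX (8.33%, against 5.43%).

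Downstream in the same stress response, guides against ATF4, the transcription factor whose translation rises when eIF2 is phosphorylated, were fewest in RTX. Their day 0 reads were 18, 60 and 346, against 40, 103 and 352 under DMSO and 6, 26 and 316 under RTX. The first 2 guides, the first of them rarely read, had fewer reads in RTX than at day 0 and the third stood near its day 0 level, with medians of 0.58 in DMSO over day 0, -1.07 in RTX over day 0 and -1.68 in RTX over DMSO. PPP1R15B, a subunit of the phosphatase that reverses eIF2 phosphorylation, stood at -0.31, 0.86 and 0.96, and its stress-induced relative PPP1R15A at 0.07, 0.46 and 0.38. DDIT3, a target of ATF4, stood at 0.56, 0.12 and -0.02.

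Of the start codon selection factors, EIF1 and EIF1AX had a median past the limit. EIF1, which keeps the scanning subunit open until a start codon is met, had day 0 reads of 72, 90 and 353, against 17, 39 and 248 under DMSO and 69, 91 and 427 under RTX. All 3 guides were lowest in DMSO and near or above day 0 in RTX, with medians of -1.26, 0.01 and 1.25 in DMSO over day 0, RTX over day 0 and RTX over DMSO. Its paralog EIF1B stood at 0.40, 0.10 and -0.19, with all guides above 0 in DMSO over day 0.

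EIF1AX, the X-linked gene of eIF1A, had day 0 reads of 102, 261 and 167, against 0, 452 and 90 under DMSO and 25, 273 and 179 under RTX. The first guide was not read at all in DMSO. With the floor of 3 reads there, it was 38.0-fold lower than at day 0 and 9.18-fold higher in RTX than in DMSO. Those folds leave out the counting error of the 102 and 25 reads. Its 95% exact counting interval, without the pseudocount, ended at a log2 ratio of -4.92 in DMSO over day 0. For RTX over DMSO, the interval began at 2.79. The second guide was highest in DMSO, so the guides disagreed. The medians were -1.01, 0.06 and 1.09, and with a pseudocount of 20 the first was -0.90 and the last 0.98, both under the limit. With the mean of the guides the first was -1.63, and the second turned to -0.57. EIF1AY, its near-identical Y-linked copy, stood at -0.33, -0.06 and 0.07. Guides for near-identical copies may cut both, so the values of this pair are uncertain as effects of either gene.

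EIF5, which triggers GTP hydrolysis on eIF2 at the start codon, had day 0 reads of 371, 255 and 309, against 101, 220 and 336 under DMSO and 312, 340 and 227 under RTX. Only its first guide was past a 2-fold loss in DMSO over day 0, at -1.98, and the gene's medians were -0.36, -0.25 and 0.75. EIF5B, the GTPase that joins the large subunit, had day 0 reads of 160, 111 and 212, against 311, 83 and 160 under DMSO and 142, 66 and 245 under RTX. Its medians were -0.55, -0.17 and -0.18, and the first was -0.11 with the mean of the guides.

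The 12 measured genes of eIF3, the scaffold that binds the small ribosomal subunit, spanned medians from -1.82 to 0.19 in DMSO over day 0. Past a 2-fold loss there were 11 of 36 guides (30.6%), against 7.52% of all guides, and 3 of 12 genes, against 3.42% of all genes. For RTX over DMSO, 8 guides (22.2%) were past a gain, against 7.89% of all guides. In that comparison 2 genes were past a gain, against 2.75% of all genes. The median over the 12 genes was 0.41, where all genes had -0.0025. The guides took 520 RPM at day 0 (509 to 531), 385 in DMSO (376 to 394) and 533 in RTX (522 to 544).

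EIF3D, a subunit that can itself bind the cap, held the highest single guide of the set in RTX over DMSO. Its guides had day 0 reads of 128, 299 and 322, against 184, 53 and 98 under DMSO and 153, 565 and 344 under RTX. The second guide stood at 3.43 in RTX over DMSO (95% exact counting interval 3.15 to 3.99, without the pseudocount), the third at 1.90 and the first at -0.12. The medians were -1.82 in DMSO over day 0, 0.24 in RTX over day 0 and 1.90 in RTX over DMSO. EIF3I, a subunit of the core module, had day 0 reads of 60, 78 and 93, against 40, 98 and 29 under DMSO and 125, 103 and 96 under RTX. Each guide was highest in RTX, and the medians were -0.67, 0.37 and 1.66.

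EIF3A, the largest scaffold subunit, had day 0 reads of 87, 172 and 286, against 30, 271 and 163 under DMSO and 74, 367 and 143 under RTX. Its guides went different ways and the medians were -0.95, -0.23 and 0.57. EIF3B, the other scaffold of the core, had day 0 reads of 366, 406 and 49, against 233, 474 and 53 under DMSO and 371, 438 and 30 under RTX, with medians of -0.04, 0.01 and 0.03. No measured guide of EIF3B was past a 2-fold change in any comparison. Of all genes, 19.0% had at least 1 guide past a 2-fold loss in DMSO over day 0.

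EIF3F, a further eIF3 subunit, had day 0 reads of 45, 485 and 173, against 55, 231 and 60 under DMSO and 91, 355 and 65 under RTX. Its medians were -1.21, -0.45 and 0.75, and the first was -0.90 with the mean of the guides. EIF3J, a loosely bound subunit that also acts in ribosome recycling, had day 0 reads of 71, 115 and 94, against 25, 51 and 272 under DMSO and 4, 95 and 108 under RTX. The guides disagreed in direction. Its medians of -1.25 in DMSO over day 0 and -1.16 in RTX over DMSO were -0.47 and -0.61 with the mean of the guides, and the last was -0.86 with a pseudocount of 20. The median in RTX over day 0 was -0.27, and -1.06, past the limit, with the mean.

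The remaining eIF3 genes stayed within the limit. EIF3E, EIF3G, EIF3H, EIF3K, EIF3L and EIF3M had medians between -0.61 and 0.19 in DMSO over day 0, between -0.28 and 0.46 in RTX over day 0 and between -0.19 and 0.75 in RTX over DMSO. Single guides among them went further. An EIF3L guide with 80 reads at day 0, 21 under DMSO and 105 under RTX stood at 2.21 in RTX over DMSO. An EIF3G guide with 44, 83 and 9 reads in the same libraries stood at -2.54, while the other guides of that gene stood at -0.19 and -0.02.

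The factors that assemble at the cap, taken with paralogs such as EIF4A3 that act elsewhere, had 1 gene median past the limit, that of EIF4G1. That was 1 of the 12 genes of eIF4E, eIF4G, eIF4A, eIF4B and eIF4H, against 3.42% of all genes past a loss in DMSO over day 0. In that comparison, 5 of 35 measured guides (14.3%) were past a 2-fold loss, against 7.52% of all guides. In RTX over DMSO, 4 (11.4%) were past a gain, against 7.89% of all guides. The medians over these 12 genes were -0.01 and 0.09. EIF4E, which binds the cap, had day 0 reads of 419, 200 and 354, against 281, 200 and 120 under DMSO and 341, 179 and 177 under RTX. Its medians were -0.72, -0.30 and 0.41, with all guides below 0 in both comparisons with day 0. The paralogs EIF4E1B, EIF4E2 and EIF4E3 had medians between -0.23 and 0.15 in all 3 comparisons.

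EIF4G1, the scaffold that joins eIF4E to eIF4A and eIF3, had day 0 reads of 94, 174 and 293, against 40, 299 and 108 under DMSO and 59, 167 and 123 under RTX. Its medians were -1.28 in DMSO over day 0, -0.64 in RTX over day 0 and 0.31 in RTX over DMSO, and the first was -0.74 with the mean of the guides. The third guide was low in both day 14 libraries. EIF4G2, a relative that does not bind eIF4E, had day 0 reads of 576, 121 and 268, against 467, 173 and 314 under DMSO and 608, 103 and 293 under RTX, with medians of 0.07, 0.07 and 0.04. EIF4G3 stood at -0.63, 0.21 and 0.83.

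No measured guide of 8 against the eIF4A helicases was past a 2-fold loss in any comparison. Of all guides, 7.52% were in DMSO over day 0, 5.32% in RTX over day 0 and 5.43% in RTX over DMSO. EIF4A1, the main helicase, had day 0 reads of 441, 180 and 374, against 555, 127 and 444 under DMSO and 498, 418 and 453 under RTX, with medians of 0.09, 0.27 and 0.17. EIF4A2, its paralog, had day 0 reads of 210, 452 and 345, against 401, 659 and 537 under DMSO and 433, 390 and 379 under RTX, with medians of 0.47, 0.13 and -0.36. EIF4A3, the helicase of the exon junction complex and despite its name a factor of splicing and decay, had day 0 reads of 396 and 134 for its 2 measured guides, against 964 and 146 under DMSO and 560 and 163 under RTX. Its medians were 0.54, 0.38 and -0.17, and with the guide of 9 day 0 reads included the first was -0.03. EIF4B, a helicase cofactor, stood at -0.74, -0.23 and 0.14. EIF4H, a related cofactor, stood at 0.14, 0.12 and 0.78, with 1 guide at 2.001 in RTX over day 0 whose reads went from 44 at day 0 to 84 under DMSO and 192 under RTX.

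Genes of eIF4E-binding proteins had no median past the limit in any comparison. The binding proteins EIF4EBP1, EIF4EBP2 and EIF4EBP3, which release eIF4E when mTOR phosphorylates them, and EIF4ENIF1, which carries eIF4E into the nucleus, had medians between -0.51 and 0.49 in DMSO over day 0. Their medians lay between -0.22 and 0.61 in RTX over day 0 and between -0.11 and 0.39 in RTX over DMSO. Of their 12 guides, 0 were past a 2-fold change in DMSO over day 0 or in RTX over DMSO. Of all guides, 7.52% and 5.43% were past a loss in these comparisons, and 2.32% and 7.89% past a gain. In RTX over day 0, 1 was past a loss (8.33%, against 5.32% of all guides), an EIF4EBP1 guide at -1.10 with 214 reads at day 0 and 98 in RTX.

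EIF6, which keeps free large ribosomal subunits from joining too early and acts in their assembly, had day 0 reads of 205, 259 and 85, against 72, 257 and 44 under DMSO and 196, 354 and 32 under RTX. Its medians were -1.02, -0.07 and 0.59, and the first was -0.83 with a pseudocount of 20 and -0.93 with the mean of the guides. The third guide was low in both day 14 libraries.

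EIF5A, an elongation and termination factor that carries the amino acid hypusine, had day 0 reads of 358, 345 and 115, against 433, 106 and 133 under DMSO and 513, 189 and 176 under RTX. One guide was past a 2-fold loss in DMSO over day 0, at -1.81, and the medians were 0.05, 0.51 and 0.53. The first turned to -0.55 with the mean of the guides and to -0.14 scaled to the non-targeting guides, and the second was 0.08 with the mean. EIF5A2 stood at 0.21, 0.01 and 0.13, and EIF5AL1, a near-identical copy of EIF5A, at -0.24, -0.45 and -0.22, where the same uncertainty between copies applies. DHPS and DOHH, the enzymes that make hypusine, stood at 0.02 and -0.87 in DMSO over day 0, at -0.82 and 0.28 in RTX over day 0 and at 0.35 and 0.95 in RTX over DMSO.

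EIF2A, an alternative carrier of initiator transfer RNA that is no subunit of eIF2, was low in both day 14 libraries. Its guides had day 0 reads of 95, 533 and 140, against 78, 302 and 74 under DMSO and 38, 411 and 40 under RTX. All 3 guides were below day 0 in both, with medians of -0.97 in DMSO over day 0, -1.23 in RTX over day 0 and -0.68 in RTX over DMSO. With a pseudocount of 20 the median in RTX over day 0 was -0.99, just under the limit. EIF2D, which acts in reinitiation, stood at -0.21, -0.28 and 0.04. EIF1AD, a nuclear protein with an eIF1A-like domain, stood at -0.58, 0.18 and 0.75, with 1 guide whose 192 day 0 reads became 44 under DMSO and 161 under RTX.

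Among 36 other genes of translation and its control, 3 had a median past a 2-fold loss in DMSO over day 0, where 3.42% of all genes did, and 0 past a gain. These were DENR, a reinitiation factor, at -1.34, EEF1B2, an exchange factor of elongation, at -1.15, and ETF1, the release factor, at -1.11. In RTX over day 0, ATF4 alone was past a loss, where 1.39% of all genes were, and 0 genes past a gain, where 0.62% were. In RTX over DMSO, RPTOR, the scaffold of the mTOR complex that controls eIF4E, stood at 1.31 and PELO, which rescues stalled ribosomes, at 1.23, the 2 of 36 genes past a gain, where 2.75% of all genes were. ATF4 was the 1 gene past a loss there, against 0.844%. RPTOR had day 0 reads of 103, 199 and 977, against 176, 96 and 617 under DMSO and 143, 227 and 1391 under RTX. MTOR stood at -0.31, 0.48 and 0.64 in the 3 comparisons, GSPT1, the partner of the release factor, at -0.77, 0.03 and 0.79 over 2 measured guides, and EEF2, the translocase, at 0.07, 0.12 and 0.33. The median over the 36 genes was -0.14, 0.07 and 0.34.

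Changes of 4-fold or more were counted over the same 158 guides. In DMSO over day 0, 9 guides were past a 4-fold loss, a larger share than the 1.62% of all guides, and 0 past a 4-fold gain, where 0.0687% were. They belonged to EIF1AD, EIF1AX, EIF2S1, EIF2S2, EIF2S3, EIF2B1, EIF2B2, EIF2B5 and EIF3D, 1 each. Between the day 14 libraries, 7 were past a 4-fold gain, a larger share than the 1.31% of all guides, and 1 past a 4-fold loss, against 0.607%. The gains were 2 guides each of EIF2B2 and EIF2B5 and 1 each of EIF1AX, EIF3D and EIF3L. In RTX over day 0, 1 guide was past a 4-fold loss, against 0.762%, and 1 past a gain, against 0.19%, namely the EIF3J guide with 4 reads in RTX, at -3.09, and the EIF4H guide at 2.001.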

How the data were processed

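Genomic DNA of 3 NUGC3 cultures underwent PCR in 2 steps and sequencing, per the labels' protocols. The submitters' processing notes name MAGeCK 0.5.7 and the build hg19, and the read matching step is not given in the sources. The deposited signal is, from its steps, a read count scaled by the authors with one size factor for each library of a pair, in 3 tables. Whole reads were recovered as multiples of the value of 1 read; at least 99.9968% came out whole within a tolerance of 0.1. The submitters' own p-values were not used.

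Log2 ratios used the normalized values, a pseudocount of 5 and a minimum of 10 normalized day 0 reads. Genes needed 2 measured guides, and 72 guides with date-like names were left out of genes. RPM values are shares of recovered reads. With 1 library per condition the comparisons are descriptions with a 2-fold limit. Members, subgroups, the 36 further genes and the named genes (median past the limit, or fixed by name) were chosen with earlier results of these data known. All 53 symbols matched RefSeq (GRCh38.p14), and no guide sequence or coordinate is given. An alternative count test, edgeR 4.0.16, used the recovered reads and 1 dispersion from the non-targeting guides. Scripts (Python 3.11.15, scipy 1.17.1) were tested on simulated data.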

Additional observations from a re-analysis of the deposited data

How the results depend on the processing

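With 1 library per condition, depth and drift of single guides set the limit of what these data show. Scaling to the non-targeting guides shifted the median of all genes by -0.19, -0.11 and 0.10 in DMSO over day 0, RTX over day 0 and RTX over DMSO. The median over the 53 genes, -0.36 in DMSO over day 0, then became -0.55, and was -0.34 with a pseudocount of 20, -0.39 with equal totals, -0.48 with the mean of guides and -0.44 with at least 3 guides. For the 39 initiation factors, -0.61 became -0.80, and was -0.53 with a pseudocount of 20, -0.55 with 50 day 0 reads, -0.64 with equal totals and -0.54 with the mean. In RTX over day 0, both medians of 0.01 became -0.063 with 50 day 0 reads, -0.049 with equal totals and -0.10 scaled to the non-targeting guides (-0.0985 and -0.0989). In RTX over DMSO, 0.31 became 0.42 so scaled, and 0.28 with a pseudocount of 20 or with 50 day 0 reads, 0.29 with equal totals and 0.34 with the mean. There, 0.41 became 0.51, 0.38, 0.39 and 0.61 when scaled to the non-targeting guides, with 50 day 0 reads, equal totals and the mean.

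With a log2 limit of 1.5, DMSO over day 0 had 25 guides and 5 genes for loss and 0 guides for gain. Of all guides and genes, 3.41%, 1.23% and 0.366% were so. RTX over day 0 had 5 guides lost, 1 gained and 0 genes lost, against 1.94%, 0.714% and 0.308% of all. RTX over DMSO had 21 guides and 5 genes gained and 0 genes lost, against 3.04%, 0.824% and 0.114% of all. Scaled to the non-targeting guides, guides gained were 1 in DMSO over day 0 and 5 in RTX over day 0, against 1.14% and 2.27% of all guides. Genes lost in RTX over day 0 were 0 with a pseudocount of 20 and 2 with the mean, against 0.819% and 1.45% of all genes. Those lost in RTX over DMSO were 0 under both, against 0.481% and 0.849%. edgeR's exact test, called at a Benjamini-Hochberg adjusted p under 0.05, compares the libraries and not the conditions. In DMSO over day 0 it called 14 member guides lower and 0 higher (2.08% and 0.133% of all guides). It called 1 lower and 1 higher of 158 in RTX over day 0 (0.674% and 0.203% of all guides), and 1 lower and 6 higher in RTX over DMSO (0.401% and 0.933%). Of 991 non-targeting guides it called 6, 9 and 8.

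Of 23 gene medians past the limit in some comparison, none changed sign in 184 recomputations. Of the recomputed values, 12 fell under the limit, 5 with a pseudocount of 20 and 7 with the mean of guides. Many of the recomputations could not have changed a sign. Another pseudocount cannot turn the sign of a guide's ratio, nor of these medians. All guides of these genes were measured, so dropping the day 0 filter or requiring every guide left their values as they were. Rescaling moved the median of all genes by at most 0.19 in size, too little to turn values past the limit. Every recomputation also used the same libraries. The lack of sign changes is thus no evidence that the directions hold. Of 58 values under the limit for the genes given with all their reads, 6 passed it and 11 turned sign in some alternative. The cause was not tested. The alternative with the authors' log2 fold change was not run, because no such column was used here. No paired analysis was possible because each condition was 1 library.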
